A study of Mus musculus with 8 samples.

Results

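The nuclear-encoded subunits of respiratory complex I were compared between Nuak1 KO and WT neurons. Members were all protein-coding genes in the deposited gene count table whose symbols begin with Ndufa, Ndufb, Ndufc, Ndufs or Ndufv, Ndufab1 included, without the assembly factors named Ndufaf. This rule gave 38 of 32726 gene identifiers and used no measured value, though the list was chosen with earlier results of these data known. Of these, 37 passed the filter on low counts. The remaining member, Ndufa4l2, had between 0 and 9 counts per library and was not tested. The genes Ndufb1, Ndufb4b and Ndufb4c, which carry such symbols in RefSeq, had no matched row and were not analysed here.

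Complex I is the entry point of most electrons into the mitochondrial respiratory chain. It oxidises NADH, passes the electrons along a chain of iron-sulfur clusters to ubiquinone and pumps protons across the inner membrane. A conserved core carries out the chemistry. The core subunits of the peripheral arm, which projects into the matrix, come from nuclear genes. Those of the membrane arm come from the mitochondrial genome, and a shell of nuclear-encoded accessory subunits is needed for assembly and stability. Neurons rely heavily on oxidative phosphorylation, and inherited complex I defects often affect the brain.

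The samples were 4 KO and 4 WT libraries of poly-A RNA, here called KO1 to KO4 or WT1 to WT4. According to the study's methods, they came from cultured cortical neurons of mouse embryos lacking Nuak1 in all cells and of WT embryos. The tissue label names cortex or hippocampus for every library, so no region is assigned here. The age of the embryos and the days in culture are stated in the paper but not in the labels. KO1, KO4, WT1 and WT3 carry the lane label A and the others B, and the strain label is BJ for KO1 to KO3, BK for KO4, WT2 and WT4, BO for WT1 and BQ for WT3. Only BK occurs in both genotypes, so genotype and strain label are largely confounded. The main test below has no term for this label. The methods give 4 animals per condition for RNA sequencing, and the labels do not tie single libraries to animals.

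Total counts ranged from 31247078 to 67155004 per library. Nuak1, encoding a kinase related to AMPK, had 51.6 to 82.6 CPM (counts scaled to a library total of 1000000) in WT but 1.96 to 2.72 CPM in KO libraries, which checks the labels. Markers of glutamatergic neurons summed to 4509 to 5257 CPM per KO library and 4622 to 5100 CPM per WT library. The sum was 677 to 1265 and 631 to 932 CPM for astrocyte markers, 164 to 286 and 147 to 239 CPM for interneuron markers, 460 to 558 and 442 to 541 CPM for oligodendrocyte lineage markers, and 196 to 304 and 114 to 244 CPM for progenitor markers. Microglial markers stayed at 2.60 to 31.3 and 3.15 to 13.5 CPM, with P2ry12 and Tmem119 below 1 CPM in all libraries. Endothelial and mural markers stayed at 2.42 to 3.31 and 2.204 to 3.05 CPM, with Cldn5 and Kdr below 1 CPM, and fibroblast markers at 11.2 to 20.4 and 5.33 to 34.0 CPM. No listed marker was at 0 in all libraries, and the part of these cell types in the values below was not tested. KO1 and WT1 stood apart from the other libraries: their values on the surrogate variable, an axis of unwanted variation estimated from all genes, were -0.56 and -0.62, against 0.05 to 0.38 in the other 6. The median and the fold changes of named members are given with and without them.

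The promoters of the members were examined for short motifs of transcription factors known to act on respiratory chain genes. RefSeq promoter sequences of build GRCm38.p6, covering 250 bases before to 50 after the transcription start, were matched for 33 members. The core motif of NRF1, an activator of nuclear respiratory chain genes, was searched on both strands as GCGCA, any base and GCGC, and stood in the promoters of 7 members, or 21.2%, against 5.19% of 27025 genes. Those genes were all that had a RefSeq promoter sequence, and were not matched to the members for GC content or expression. The YY1 motif AAGATGGCG was present in 15.2% of members and 1.64% of genes, in Ndufa9, Ndufc1, Ndufs4, Ndufs6 and Ndufs7. The ETS motif CCGGAAG was present in 12.1% and 9.93%, and the GC box GGGCGG in 45.5% and 38.2%. These are matches of letters, and binding was not measured. Stretches of 30 bases around the NRF1 core follow, because the motif was more frequent in members than in all genes, with the motif in capitals, in the direction of transcription.
Ndufa11, chr17:56717692-56717721, plus strand: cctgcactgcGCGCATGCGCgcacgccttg
Ndufa5, chr6:24527697-24527726, minus strand: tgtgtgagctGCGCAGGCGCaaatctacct
Ndufa6, chr15:82354249-82354278, minus strand: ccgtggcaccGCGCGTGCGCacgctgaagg
Ndufa8, chr2:36049349-36049378, minus strand: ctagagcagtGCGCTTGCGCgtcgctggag
Ndufb4, chr16:37654371-37654400, minus strand: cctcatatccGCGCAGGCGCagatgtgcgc
Ndufb4, chr16:37654428-37654457, minus strand: ccttgtgcgcGCGCAGGCGCacttcctgag
Ndufb4, chr16:37654540-37654569, minus strand: gagaagcagtGCGCACGCGCagaatacgcg
Ndufs5, chr4:123718265-123718294, minus strand: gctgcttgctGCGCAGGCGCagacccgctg
Ndufs6, chr13:73328479-73328508, minus strand: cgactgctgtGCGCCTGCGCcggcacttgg
Ndufb4 held 3 such motifs, and the other 6 genes held 1 each. The log2 fold changes between genotypes of these 7 members, given below singly or within the range of their role, ran from -0.21 for Ndufb4 to 0.23 for Ndufa11, with 5 above 0.

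No complex I subunit passed the test for a difference between genotypes. In edgeR's quasi-likelihood test with Benjamini-Hochberg (BH) adjustment over 16272 genes, 0 of 37 members had an adjusted p under 0.05, against 0.0492% of all tested genes (8 genes). The lowest adjusted p among members was 0.262 and the highest 0.990. DESeq2 with the same surrogate variable also called 0 members, its lowest adjusted p being 0.0656. The log2 fold changes of the members ran from -0.21 to 0.31, and 26 of 37 were smaller than 0.1 in size. Standard errors ran from 0.053 to 0.163, with a median of 0.082. Bulk RNA does not tell fewer cells of a type from less RNA per cell.

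At an unadjusted p under 0.05, edgeR's test gave 4 of 37 members (10.8%), next to 10.5% of all tested genes. All 4 were higher in KO: Ndufv3, Ndufa3, Ndufa11 and Ndufab1. Among all tested genes, 4.71% were higher and 5.78% lower in KO at this p. Adding the study's fold threshold, an absolute log2 fold change above 0.25, kept 2 members (5.41%), Ndufv3 and Ndufa3, next to 5.67% of all tested genes. The shares for both directions together were close to those of all tested genes.

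The middle of the group lay near 0. The median log2 fold change of the members was 0.03, against 0.01 over all tested genes, and 26 of 37 members (70.3%) had a positive value, against 53.4%. When KO1 and WT1 were left out, 17 of 37 members were positive, against 51% of the genes tested in that fit, and their median was -0.0077. At an unadjusted p under 0.05, that fit gave 1 member, Ndufa3, or 2.70%, against 4.05% of genes. Within lane A, 23 members were positive, against 49.5% of genes, and within lane B 13 were positive, against 50.3%. With strain label added to the model, 35 were positive, against 49.6% of genes, and the median was 0.21. In that fit the genotype difference comes only from KO4 against WT2 and WT4, the libraries with the shared label BK.

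**Figure D1:**
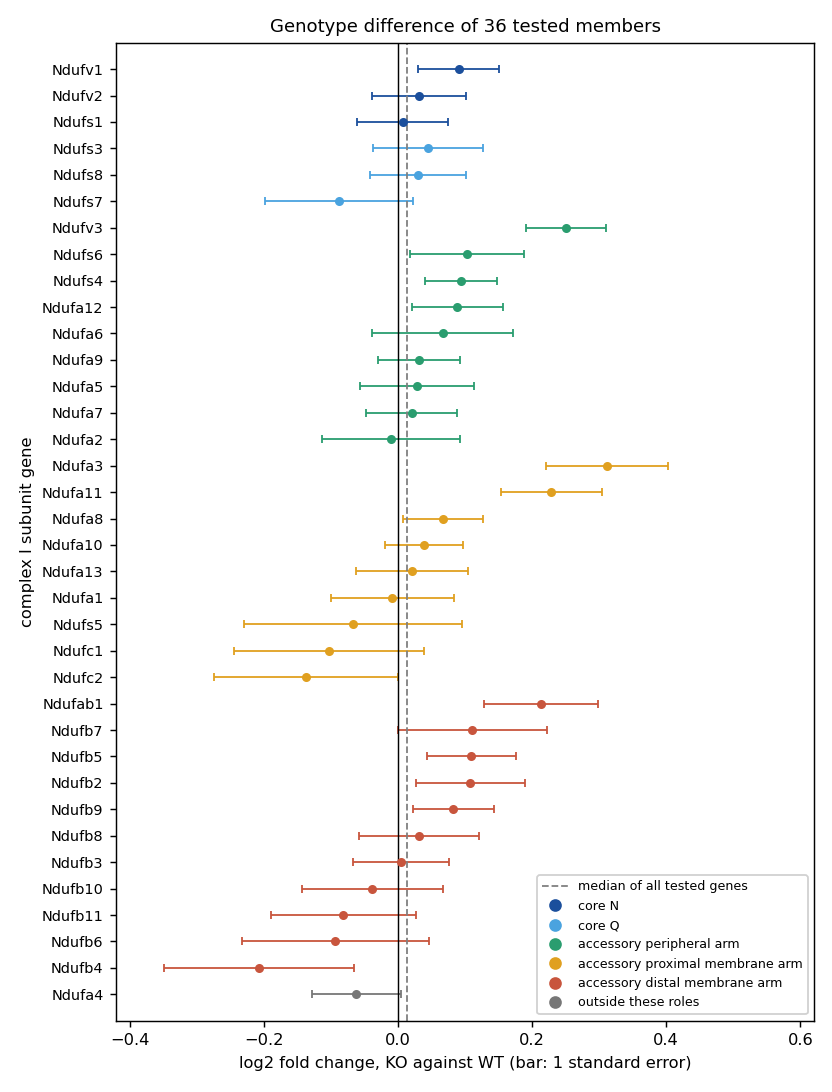
Fitted log2 fold change, KO against WT, of 36 of the 37 tested complex I members (horizontal axis), with 1 standard error as bars, one gene per line and coloured by role in the complex. Most points lie within 0.1 of 0, Ndufa3 is the highest at 0.31 and Ndufb4 the lowest at -0.21 in this main model, and no member passed the adjusted threshold.

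The summed level of the 38 members differed between genotypes by less than the spread between libraries. The sums were 1314, 1465, 1596 and 1674 CPM in KO1 to KO4, and 1189, 1483, 1665 and 1481 CPM in WT1 to WT4. The groups overlapped, and the lowest library of each genotype was KO1 and WT1. The mean sum was 1512 ± 158 CPM for KO against 1455 ± 197 CPM for WT (SD, n = 4 each). It was 1578 ± 106 against 1543 ± 106 CPM (SD, n = 3 each) once KO1 and WT1 were left out.

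Levels differed widely between subunits. On a scale of CPM per kilobase of transcript, averaged over the 6 libraries other than KO1 and WT1, levels of the 37 tested members ran from 6.53 for Ndufb4 to 370 for Ndufa4. These levels depend on the transcript chosen for the length, here the coding transcript with the longest coding sequence in the GENCODE vM1 annotation. Ndufb4 is uncertain, since Ndufb4b and Ndufb4c are copies of it and reads that align to several places were discarded.

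The N-module core, where NADH is oxidised, had small positive values in the main model, with a median log2 fold change of 0.03, but not in every set of libraries. Ndufv1, which holds the flavin and binds NADH, had 52.9, 87.3, 95 and 109 CPM in KO1 to KO4 and 45.3, 90.5, 102 and 86.9 CPM in WT1 to WT4. KO1 and WT1 were the low libraries, and the groups overlapped. Ndufv2, an iron-sulfur subunit, had 76.5, 63.5, 68.1 and 72.7 CPM in KO and 67.6, 63.7, 65.6 and 70.8 CPM in WT. Ndufs1, the largest subunit and a carrier of several iron-sulfur clusters, had 136, 101, 96.0 and 98.6 CPM in KO and 132, 93.9, 96.7 and 92.2 CPM in WT. For Ndufs1, KO1 and WT1 were the high libraries. The log2 fold changes were 0.09 ± 0.060 for Ndufv1, 0.03 ± 0.070 for Ndufv2 and 0.01 ± 0.068 for Ndufs1 (± SE). Their adjusted p by edgeR's quasi-likelihood test was 0.617 or higher. When KO1 and WT1 were left out, 2 of 3 were positive, with 0.03 ± 0.114 for Ndufv1, -0.00063 ± 0.088 for Ndufv2 and 0.03 ± 0.076 for Ndufs1 (± SE). Ndufv1 was 0.05 when KO4 alone was left out. In lane B alone 1 of 3 was positive, with a median of -0.03.

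In the Q-module core, which hands electrons to ubiquinone, the genes described had values near 0 in the main model. Ndufs3 had 20.6, 16.4, 14.7 and 15.99 CPM in KO1 to KO4 and 17.9, 13.9, 15.6 and 16.1 CPM in WT1 to WT4. KO1 and WT1 were the highest libraries of their genotype for Ndufs3. Ndufs8, a carrier of iron-sulfur clusters, had 10.2, 20.9, 26.9 and 29.0 CPM in KO and 8.19, 25.03, 31.3 and 23.9 CPM in WT. Ndufs7, which holds the last iron-sulfur cluster before ubiquinone, had 2.56, 8.24, 11.8 and 13.7 CPM in KO and 1.98, 10.5, 21.4 and 10.03 CPM in WT. Ndufs7 had the widest spread of all tested members, 10.8-fold between its highest and lowest library and 2.59-fold over the 6 libraries without KO1 and WT1. The log2 fold changes were 0.04 ± 0.082 for Ndufs3, 0.03 ± 0.071 for Ndufs8 and -0.09 ± 0.110 for Ndufs7 (± SE). The lowest adjusted p of these 3 genes in edgeR's quasi-likelihood test was 0.808. Leaving out KO1 and WT1 gave 0.02 ± 0.104 for Ndufs3, -0.09 ± 0.157 for Ndufs8 and -0.34 ± 0.309 for Ndufs7 (± SE). The Ndufs7 value was -0.30 ± 0.643 with no surrogate variable and -0.51 ± 1.26 in lane A alone (± SE). It was -0.18 when KO1 was left out, -0.14 when WT2 was left out and 0.05 when WT3 was left out.

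Among the accessory subunits of the peripheral arm, 8 of 9 had positive values, with a median log2 fold change of 0.07. In the fit without KO1 and WT1, 5 of 9 did, with a median of 0.02. Ndufv3, a small subunit of the N module on chromosome 17 (GRCm38 31520115 to 31531326), had the smallest p of all members. It had 24.5, 45.6, 50.5 and 52.6 CPM in KO1 to KO4 and 17.6, 41.2, 51.2 and 39.1 CPM in WT1 to WT4. The groups overlapped, and WT3 exceeded 3 of the 4 KO libraries. The log2 fold change was 0.25 ± 0.059 (SE), with an unadjusted p of 0.00178 and an adjusted p of 0.262 in edgeR's quasi-likelihood test. Left without KO1 and WT1, the fold change was 0.14 ± 0.121 (SE), with an unadjusted p of 0.265 in the same test.

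Ndufs4 and Ndufa12, both accessory subunits of the peripheral arm, had values that did not overlap between genotypes. Ndufs4, whose loss in mice gives a model of the brain disorder Leigh syndrome, had 69.2, 67.2, 69.9 and 67.2 CPM in KO1 to KO4 and 60.8, 60.8, 62.1 and 66.3 CPM in WT1 to WT4. The lowest KO library stood just above WT4. Ndufa12, on chromosome 10, had 15.8, 16.5, 17.2 and 16.3 CPM in KO and 14.4, 14.8, 15.6 and 15.7 CPM in WT. Their log2 fold changes were 0.09 ± 0.053 and 0.09 ± 0.068 (± SE), with adjusted p of 0.560 and 0.669 in edgeR's quasi-likelihood test. Ndufs6, a zinc-binding subunit that joins late in assembly, had 9.57, 21.0, 21.7 and 23.0 CPM in KO and 9.28, 19.9, 23.5 and 17.3 CPM in WT, with a log2 fold change of 0.10 ± 0.084 (SE). The fit without KO1 and WT1 gave 0.08 ± 0.074 for Ndufs4, 0.09 ± 0.095 for Ndufa12 and 0.08 ± 0.132 for Ndufs6 (± SE). Ndufs6 was 0.05 when KO2 alone was left out and 0.17 when WT1 alone was. The other 5 genes of this arm, Ndufa2, Ndufa5, Ndufa6, Ndufa7 and Ndufa9, had log2 fold changes from -0.01 to 0.07.

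In the proximal part of the membrane arm, 5 of 9 accessory genes had positive values and the median was 0.02. The fit without KO1 and WT1 gave 3 of 9, with a median of -0.06. Ndufa3, on chromosome 7 (GRCm38 3617347 to 3620165), had the highest fold change of all members in the main model. It had 43.4, 54.9, 54.3 and 50.5 CPM in KO1 to KO4 and 33.3, 36.7, 40.8 and 50.04 CPM in WT1 to WT4. The 3 KO libraries other than KO1 stood above every WT library, and KO1 stood above WT1, WT2 and WT3 but below WT4. The log2 fold change was 0.31 ± 0.090 (SE), with an unadjusted p of 0.0064 and an adjusted p of 0.347 in edgeR's quasi-likelihood test. In the 6 libraries other than KO1 and WT1, it was 0.29 ± 0.106 (SE), with an unadjusted p of 0.0226 and an adjusted p of 0.980 in the same test. The value stayed positive in lane A (0.33), in lane B (0.27) and with strain label in the model (0.21).

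Ndufa11, a membrane subunit on chromosome 17 (GRCm38 56717762 to 56724248), had 7.44, 26.8, 34.6 and 38.01 CPM in KO1 to KO4 and 5.38, 27.7, 37.7 and 26.4 CPM in WT1 to WT4. KO1 and WT1 were 4.41-fold and 5.61-fold below the mean of the other libraries of their genotype, and the other libraries overlapped. The log2 fold change was 0.23 ± 0.075 (SE), with an adjusted p of 0.372 in edgeR's quasi-likelihood test, and 0.09 ± 0.175 (SE) without KO1 and WT1. It was 0.47 with strain label in the model, where KO4 alone is set against WT2 and WT4. With no surrogate variable it was 0.10 ± 0.583 (SE). Ndufc2, a small membrane subunit, had 24.3, 26.8, 34.6 and 36.5 CPM in KO and 22.1, 36.04, 49.9 and 27.9 CPM in WT, with a log2 fold change of -0.14 ± 0.137 (SE). WT3 held the highest value of Ndufc2. Leaving out single libraries moved it to -0.01 (WT3), -0.07 (KO2), -0.24 (KO1) and -0.23 (WT4), and leaving out KO1 and WT1 together to -0.25 ± 0.212 (SE). The other 6 genes of this group, Ndufa1, Ndufa8, Ndufa10, Ndufa13, Ndufc1 and Ndufs5, had log2 fold changes from -0.10 to 0.07.

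In the distal part of the membrane arm, 7 of 11 accessory genes had positive values and the median was 0.03. Without KO1 and WT1, 5 of 11 did, with a median of -0.05. Ndufab1 is the mitochondrial acyl carrier protein, which also serves fatty acid synthesis, and lies on chromosome 7 (GRCm38 122086815 to 122101848). It had 22.1, 17.0, 16.9 and 14.1 CPM in KO1 to KO4 and 17.9, 14.2, 11.5 and 14.7 CPM in WT1 to WT4. KO1 and WT1 were the highest libraries of their genotype. The log2 fold change was 0.21 ± 0.085 (SE), with an adjusted p of 0.437 in edgeR's quasi-likelihood test, and 0.21 ± 0.136 (SE) without KO1 and WT1. It was -0.05 with strain label in the model.

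Ndufb5 and Ndufb9, membrane subunits of the distal arm, did not overlap between genotypes. Ndufb5 had 53.8, 48.4, 48.8 and 49.4 CPM in KO1 to KO4 and 47.6, 42.4, 48.1 and 42.6 CPM in WT1 to WT4, and KO2 stood just above WT3. Ndufb9, which binds the acyl carrier protein, had 44.1, 43.2, 42.4 and 44.1 CPM in KO and 40.4, 40.4, 37.9 and 41.1 CPM in WT. The log2 fold changes were 0.11 ± 0.067 and 0.08 ± 0.060 (± SE), with adjusted p of 0.584 and 0.648 in edgeR's quasi-likelihood test, and 0.11 ± 0.085 and 0.08 ± 0.083 (± SE) with KO1 and WT1 left out. Ndufb4 had the lowest fold change of all members in the main model, with 4.68, 5.32, 6.64 and 6.38 CPM in KO and 6.14, 7.59, 6.36 and 5.74 CPM in WT. Its log2 fold change was -0.21 ± 0.142 (SE), and the groups overlapped. It was -0.14 ± 0.179 (SE) with KO1 and WT1 left out, where Ndufs7 was lowest, -0.11 when either WT1 or WT2 alone was left out, and -0.09 with strain label in the model. The other 7 genes of this group had log2 fold changes from -0.09 to 0.11.

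In all, Ndufa12, Ndufb5, Ndufb9 and Ndufs4 were the 4 of 37 members (10.8%) whose CPM stood higher in every KO than in every WT library, against 1.54% of all tested genes. The reverse held for 0 members and 0.86% of all tested genes. Differences of means in these 4 were small: 68.4 ± 1.39 against 62.5 ± 2.58 CPM for Ndufs4, 50.1 ± 2.502 against 45.2 ± 3.12 for Ndufb5, 43.5 ± 0.837 against 40.0 ± 1.38 for Ndufb9 and 16.5 ± 0.563 against 15.1 ± 0.630 for Ndufa12 (KO against WT, SD, n = 4 each). None of the 4 was among the members at an unadjusted p under 0.05.

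**Figure D2:**
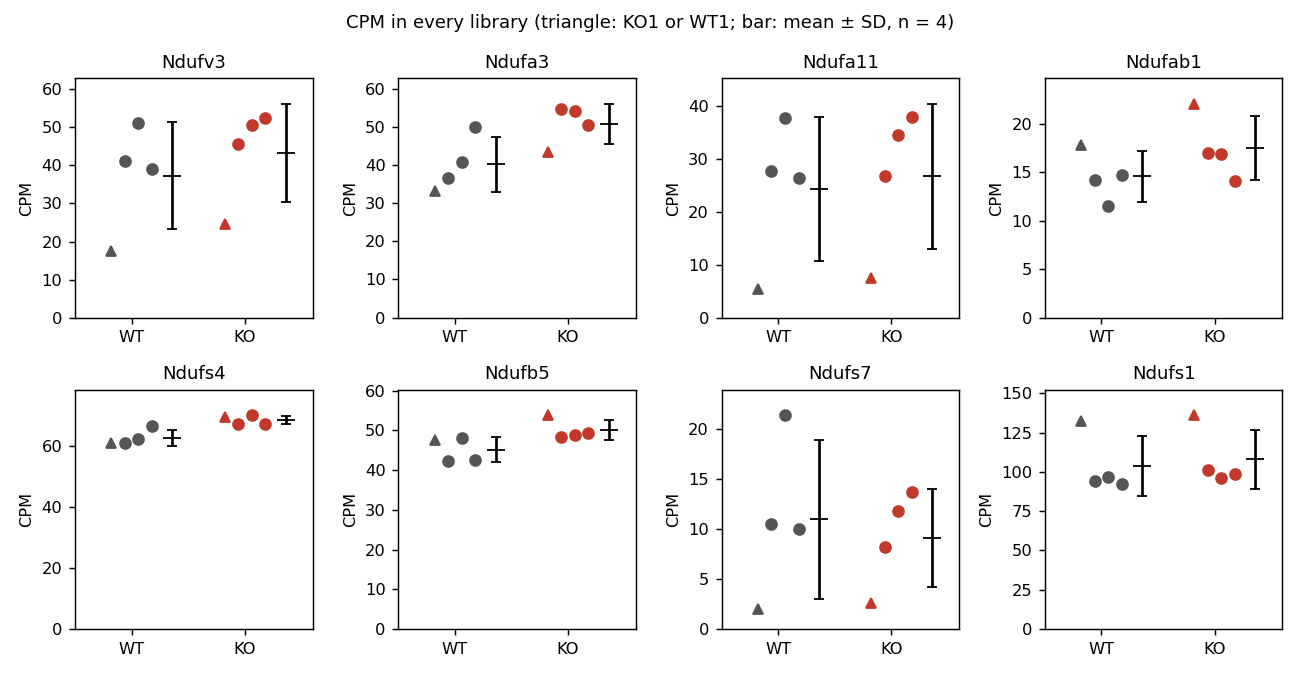
CPM (vertical axis, from 0) of 8 complex I members in every WT (grey) and KO (red) library, with triangles for KO1 and WT1 and bars for the mean ± SD of 4 libraries. Ndufs4 and Ndufb5 do not overlap between genotypes, Ndufv3, Ndufa11 and Ndufs7 are lowest in KO1 and WT1, and Ndufs1 is highest there (136 and 132 CPM).

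Ndufa4 and Ndufa4l2 lie outside these roles. Ndufa4, named as a complex I subunit but now assigned to complex IV, had the highest CPM of the members, with 167, 168, 182 and 193 CPM in KO1 to KO4 and 175, 182, 177 and 191 CPM in WT1 to WT4. The groups overlapped, and the log2 fold change was -0.06 ± 0.066 (SE), or -0.05 ± 0.089 (SE) with KO1 and WT1 left out. It was -0.03 without KO2, -0.04 without WT1, -0.10 without WT3 and -0.11 without KO4. Ndufa4l2, its hypoxia-inducible paralogue, had 0, 3, 9 and 2 reads in KO1 to KO4, against 0, 8, 6 and 5 reads in WT1 to WT4. A count of 0 allows up to 3 counts, which covers counting error only. It did not pass the filter on low counts, so no difference between genotypes was tested.

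The members on chromosome 10, which carries Nuak1, were Ndufs7 at 80249105 to 80256794, Ndufa12 at 94199035 to 94221440 and Ndufa4l2 at 127509274 to 127517154 (GRCm38). They lie 4.11, 9.76 and 43.07 Mb from Nuak1. The values of the nearest, Ndufs7, overlapped widely between genotypes, and those of Ndufa12 did not overlap.

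Ndufa1 and Ndufb11 are the X-linked members, both subunits of the membrane arm. KO3 and WT4 differed from the other libraries in sex-linked RNA, with Ddx3y, a Y-linked gene, at 80.4 and 85.8 CPM and Xist, expressed from the inactive X, at 1.82 and 2.76 CPM. Ndufa1 had 19.0, 25.3, 32.0 and 30.4 CPM in KO1 to KO4 and 17.3, 31.7, 29.1 and 28.3 CPM in WT1 to WT4. Ndufb11 had 16.4, 17.3, 22.3 and 25.5 CPM in KO and 14.6, 23.4, 27.5 and 20.7 CPM in WT. KO3 was the highest KO library for Ndufa1 but not for Ndufb11, and WT4 was the highest WT library for neither. The log2 fold changes were -0.01 ± 0.091 for Ndufa1 and -0.08 ± 0.108 for Ndufb11 (± SE), and -0.06 ± 0.123 and -0.17 ± 0.170 with KO1 and WT1 left out. Leaving out single libraries moved Ndufb11 to -0.00007 (KO2), -0.16 (KO1), -0.15 (KO4) and -0.04 (WT3).

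The widest differences among libraries separated KO1 and WT1, not the genotypes. KO1 and WT1 were both the lowest library of their genotype for 23 of 37 members (62.2%), against 33.5% of all tested genes. The same held for 22 of the 39 subunits of complexes II to V. Both were the highest for 4 members (10.8%), Ndufab1, Ndufb2, Ndufs1 and Ndufs3, against 25.8% of all tested genes. Over all 8 libraries, WT1 was the lowest for 26 members and WT3 the highest for 17.

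Their distance from the other libraries was unequal across the complex. Both libraries were more than 2-fold below the mean of the others of their genotype for 10 members: Ndufa2, Ndufa7, Ndufa8, Ndufa11, Ndufa13, Ndufb7, Ndufs6, Ndufs7, Ndufs8 and Ndufv3. The same was true of 7.74% of all tested genes (1259). Ndufa13, a subunit also known as GRIM19, had 8.13, 22.7, 32.1 and 31.7 CPM in KO1 to KO4 and 5.95, 28.3, 44.4 and 24.3 CPM in WT1 to WT4. Ndufb7 had 7.56, 15.6, 23.5 and 27.5 CPM in KO and 4.77, 21.9, 28.5 and 19.0 CPM in WT. In both genes the difference between KO1 or WT1 and the rest exceeded that between genotypes. In contrast, 17 members were within 20% of the others or above them in both libraries, and 7 were above in both: Ndufab1, Ndufb2, Ndufb5, Ndufb9, Ndufs1, Ndufs3 and Ndufv2. Over all tested genes, 59.9% were within 20% or above in both and 39.3% were above in both. The fold between highest and lowest library had a median of 1.66 over the members with all 8 libraries (range 1.15 to 10.8) and 1.35 over the 6 without KO1 and WT1 (range 1.1 to 2.59). Over all tested genes the medians were 1.76 and 1.40.

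**Figure D3:**
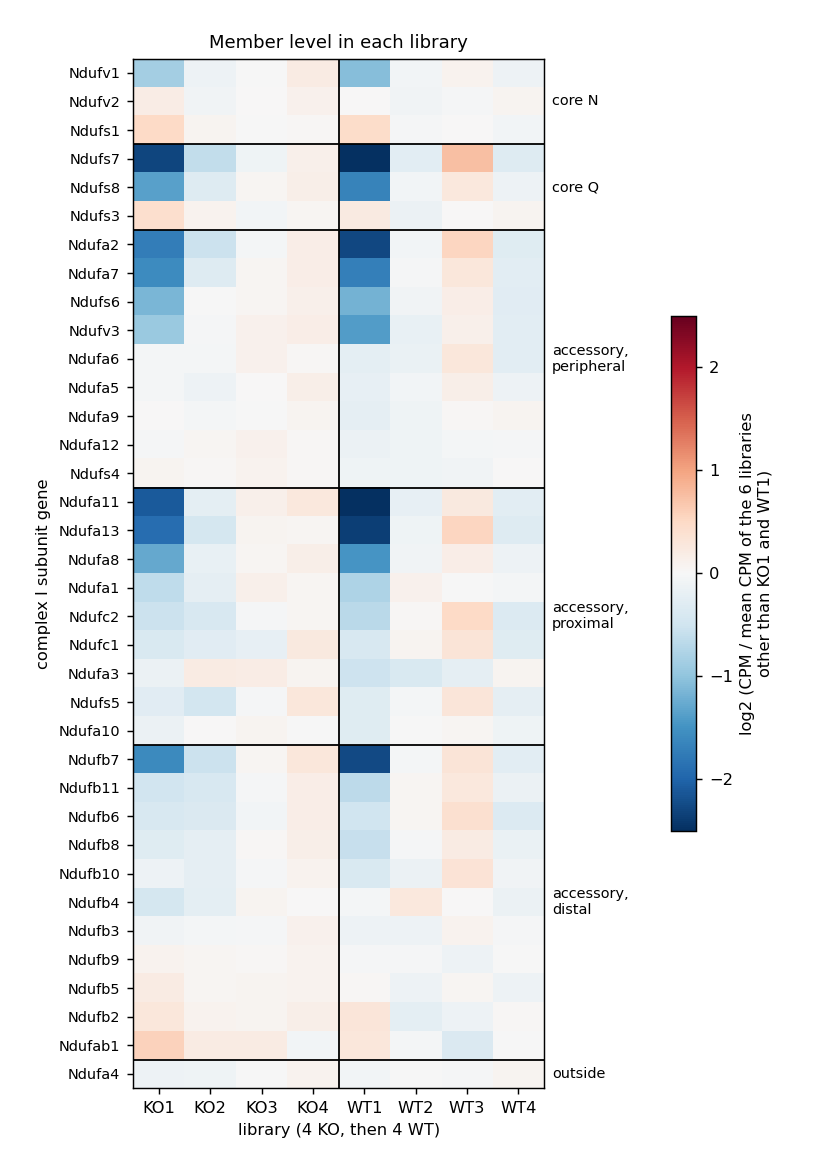
Level of 36 of the 37 tested members (rows, grouped by role) in each library (columns), as the log2 ratio of its CPM to the mean CPM of the 6 libraries other than KO1 and WT1. The columns KO1 and WT1 are dark blue for 10 members, such as Ndufs7, Ndufa11 and Ndufa13, and pale red for others, such as Ndufs1 and Ndufab1, whereas the other columns are paler.

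The members that were low in KO1 were also low in WT1. Across the 37 members, the log2 ratio of KO1 to the other KO libraries and that of WT1 to the other WT libraries had a Pearson r of 0.98, against 0.85 over 13636 tested genes. Both ratios were lower in members with GC-rich transcripts, with a Pearson r of -0.68 against the GC content of the transcript in KO1 and in WT1. The r over 13636 tested genes with a transcript sequence was -0.72 and -0.71. These are correlations across genes of the same 8 libraries, and genes are not independent replicates. With 55% GC or more, 12 members had median log2 ratios of -1.25 in KO1 and -1.50 in WT1. All tested genes in that range had medians of -0.79 and -0.85. With under 45% GC, 5 members had medians of -0.10 and -0.07, against 0.32 in both libraries for all tested genes. Ndufs7, at 60.7% GC, had the lowest ratio in WT1, and Ndufs1, at 45.1%, the highest. Members of similar GC also differed: Ndufa2, at 53.3% GC, had 6.67 CPM in KO1 and 15.3 to 24.8 CPM in KO2 to KO4, whereas Ndufs3, at 53.8%, had its highest value in KO1. The cause of this split between libraries was not tested.

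**Figure D4:**
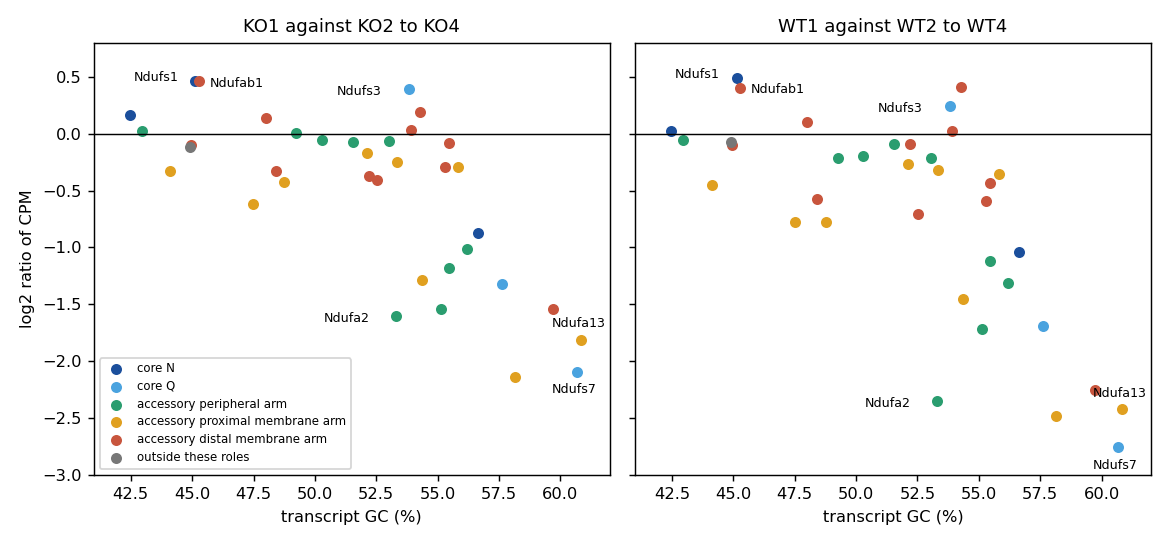
Log2 ratio of the CPM of KO1 to the mean of KO2 to KO4 (left) and of WT1 to the mean of WT2 to WT4 (right) against the GC content of the transcript, for 36 of the 37 members coloured by role. Members above 55% GC lie mostly far below 0 in both panels, and Ndufs1, Ndufab1 and Ndufs3 lie above 0 in both.

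The other genes that serve complex I showed no difference past the threshold either. Of 20 listed assembly factors, proteins that build the complex without remaining in it, 19 were matched. Of these, 12 had positive values, the median log2 fold change was 0.05, and 0 reached an unadjusted p under 0.05 in edgeR's quasi-likelihood test. When KO1 and WT1 were left out, 11 of 19 were positive with a median of 0.02. Positive values stood at 53.4% and an unadjusted p under 0.05 at 10.5% over all tested genes. The sum of the assembly factors averaged 380 ± 4.59 CPM over KO libraries and 362 ± 24.6 CPM over WT libraries (SD, n = 4 each).

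Of the 7 ND subunits encoded by the mitochondrial genome, 5 were matched and the others were not analysed here. Of these, 2 had positive values, the median log2 fold change was -0.04, and 0 reached an unadjusted p under 0.05. The 5 values ran from -0.42 to 0.11. In lane A 4 of 5 were positive with a median of 0.15, in lane B none was with a median of -0.27, and with strain label in the model none was with a median of -0.23. Their sum was 29452, 17521, 17984 and 16302 CPM in KO1 to KO4 and 27892, 21083, 11116 and 17382 CPM in WT1 to WT4. KO1 and WT1 were the highest libraries here, whereas they were the lowest for the sum of the nuclear members, and WT3 was the lowest here and the highest WT library there. The 5 ND genes had a median transcript GC of 35.7%, against 53.3% for the nuclear members. Their median log2 ratios were 0.72 in KO1 and 0.75 in WT1, against -0.29 and -0.35 for the nuclear members. Over all tested genes these ratios were also higher at lower transcript GC, and the cause was not tested.

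Of 39 listed nuclear subunits of complexes II to V, all were matched. Of these, 24 had positive values, the median log2 fold change was 0.05, and 1 (2.56%), Cyc1, reached an unadjusted p under 0.05, against 10.5% of all tested genes. Positive values made up 61.5%, against 53.4%. Their sum averaged 3720 ± 249 CPM over KO libraries and 3519 ± 345 CPM over WT libraries (SD, n = 4 each). When KO1 and WT1 were left out, 22 of 39 were positive with a median of 0.02, and with strain label in the model the median was 0.15.

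How the middle of the complex I group moved with the model and the libraries used is shown in the plot of settings. The median log2 fold change lay between -0.03 and 0.06 in the fits other than the one with the strain label, where it was 0.21. No fit called a member at an adjusted p under 0.05.

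**Figure D5:**
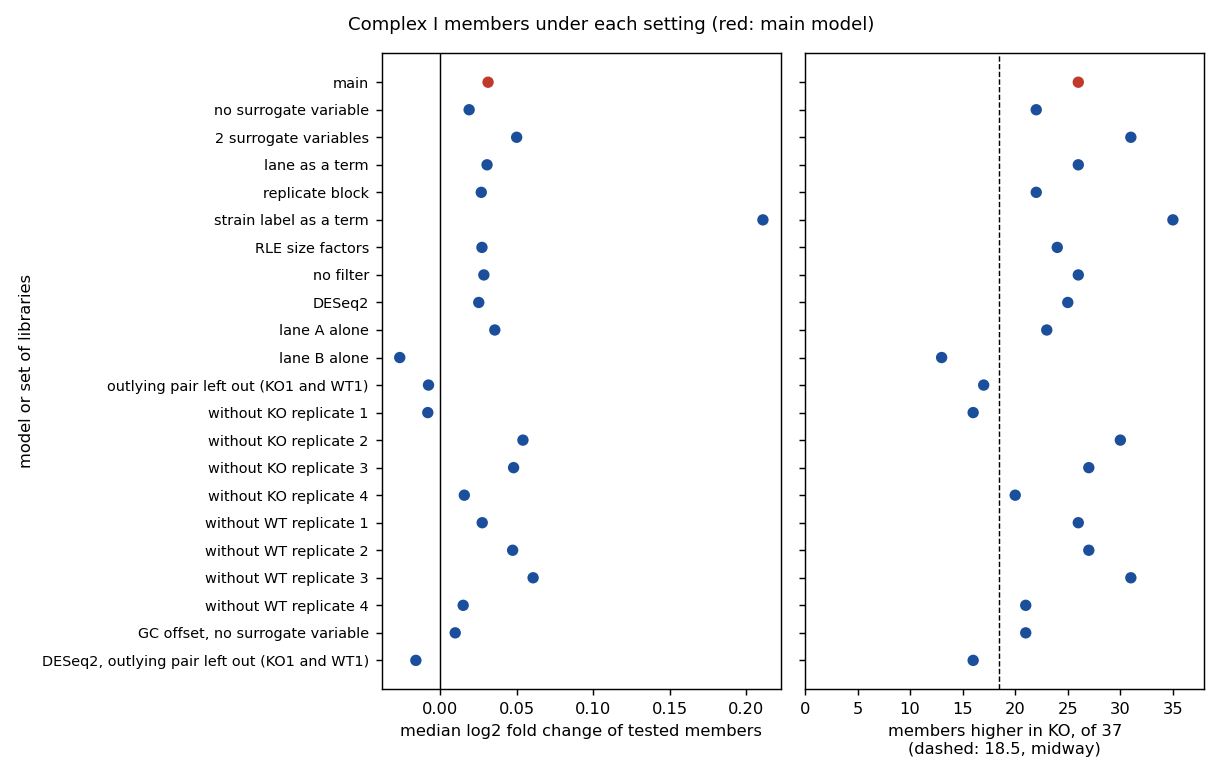
Median log2 fold change of the tested members (left) and number of members with a positive value (right) under each model or set of libraries, one per line, with the main model in red. The median stays between -0.03 and 0.06 except with strain label in the model (0.21), and the number falls below the dashed midway mark in the fits with lane B alone (13), without KO1 and WT1 (17, and 16 in DESeq2) and without KO1 (16).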

How the data were processed

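Poly-A RNA libraries of cultured neurons, 4 KO and 4 WT, were grouped by the sample labels. The authors deposited raw counts of reads for each Ensembl gene. They trimmed reads with Cutadapt 1.10, discarded ribosomal RNA reads (Bowtie2 2.2.8 is named in their processing notes), aligned to mm10 with STAR 2.5.3a and counted unique alignments with HTSeq 0.6.1p1 in union mode. Reads shared by genes or copies are thereby lost. Read length and layout differ between labels and methods, and use of strand in counting was not given in the sources used here. Symbols were found for 23260 of 32726 identifiers, and RefSeq GRCm38 positions for 20916.

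The whole table was tested with edgeR 4.0.16 in R 4.3.3 (robust quasi-likelihood F test, TMM, filterByExpr, 1 surrogate variable from sva 3.50.0) and BH adjustment over 16272 genes. The median depth was 39224504 counts. SE is the absolute log2 fold change divided by the square root of F. CPM uses the library total. Ratios of KO1 and WT1 to the others used an offset of 0.1 CPM. GC content and length came from GENCODE vM1 transcripts, and the choice of the longest coding sequence was made after values were seen. Members, gene lists, tests and the left-out pair were chosen with earlier results of these data known. Fold changes were named for core subunits, the 8 smallest p, the 2 highest and 2 lowest fold changes, the 3 highest CPM, X-linked and chromosome 10 members, and members with paralogues. Other members, such as Ndufb9, are named for non-overlapping groups, as examples of KO1 and WT1 or for the motif. A single member was counted but is not reported singly here. The procedure was tested on simulated data. Alternatives included DESeq2 1.42.0, other terms, filters and size factors, single lanes and left-out libraries.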

Additional observations from a re-analysis of the deposited data

Results flagged for a closer look

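In 52 groups of 4 libraries (each named member and each sum, per genotype), 4 values lay far from the other 3 by Dixon's ratio at 95%, where chance gives 2.6. All 4 were in KO1 or WT1. Ndufs6 was 9.57 CPM in KO1, against 21.0 to 23.0 CPM in the other KO libraries. Ndufs1 was 136 CPM in KO1, against 96.0 to 101 CPM, and 132 CPM in WT1, where WT2 to WT4 had 92.2 to 96.7 CPM. Ndufa4l2 was 0 CPM in WT1, against 0.119 to 0.132 CPM, which at this depth is 0 counts against 5 to 8 counts.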

How the results depend on the processing

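The test had 4 libraries per genotype and a median SE of 0.082, and members up to 0.31 did not pass. In all 21 alternatives, 0 members passed the BH threshold. The number at an unadjusted p under 0.05, 4 in the main model, was 0 without a surrogate variable, with the strain label as a term or in lane A alone, 1 in lane B alone, without KO1 and WT1 (edgeR and DESeq2) or with a GC offset per library in place of the surrogate variable, 6 with 2 surrogate variables, and 2 to 5 when 1 library was left out (2 without KO1 and 2 without KO2). The number of members with a positive value, 26, was 13 in lane B alone, 17 without KO1 and WT1 (16 in DESeq2) and 16 to 31 with 1 library left out, the lowest without KO1. The median was -0.0081 to 0.0606 with 1 library left out. The GC offset and DESeq2 without KO1 and WT1 were added after seeing the data. With the replicate number as a replicate block, 1 member had an unadjusted p under 0.05, 22 were positive and the median was 0.0268. The labels do not say whether the replicate numbers pair the samples. Deviations of same-numbered libraries correlated at 0.788, 0.00934, 0.237 and -0.011, which cannot decide this.

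Of the 19 members whose fold changes were named by rule, which leaves out Ndufb9, 7 kept their sign in every alternative: Ndufa3, Ndufa11, Ndufa12, Ndufb4, Ndufb5, Ndufs4 and Ndufv3. The rule picks members with small p or extreme fold changes, and the alternatives reuse the same libraries. A kept sign is therefore no independent support. Signs turned, the cause not tested, for the others. In lane B alone, the log2 fold change was -0.0077 for Ndufs3, -0.0945 for Ndufv2, -0.0286 for Ndufv1 and -0.0973 for Ndufs8. In lane A alone it was 0.0819 for Ndufa1, -0.0131 for Ndufs6, 0.0148 for Ndufa4 and -0.0118 for Ndufs8. With the strain label it was 0.00045 for Ndufa1, 0.40 for Ndufs7, 0.0406 for Ndufa4, 0.168 for Ndufc2, -0.0478 for Ndufab1 and 0.189 for Ndufb11. Without KO1 and WT1 it was -0.00063 for Ndufv2 and -0.093 for Ndufs8 (-0.0087 and -0.101 in DESeq2). Ndufs8 was -0.0568 without a surrogate variable, -0.0172 with the replicate block and -0.0511 with the GC offset in place of the surrogate variable. Ndufs7 was 0.00036 with 2 surrogate variables, and Ndufs1 -0.0012 with RLE size factors. With 1 library left out, the range was -0.00090 to 0.0914 for Ndufs3, -0.0618 to 0.0619 for Ndufa1, -0.18 to 0.0485 for Ndufs7, -0.0173 to 0.0825 for Ndufv2, -0.0389 to 0.0378 for Ndufs1 and -0.0196 to 0.0527 for Ndufs8. Over the 21 alternatives, log2 fold changes ranged from -0.14 to 0.08 for Ndufa1, 0.08 to 0.47 for Ndufa11, 0.06 to 0.09 for Ndufa12, 0.21 to 0.41 for Ndufa3, -0.15 to 0.04 for Ndufa4, -0.05 to 0.27 for Ndufab1, -0.22 to 0.19 for Ndufb11, -0.28 to -0.09 for Ndufb4 and 0.07 to 0.20 for Ndufb5. For the rest they ranged from -0.26 to 0.17 for Ndufc2, -0.04 to 0.07 for Ndufs1, -0.0077 to 0.10 for Ndufs3, 0.04 to 0.13 for Ndufs4, -0.01 to 0.28 for Ndufs6, -0.51 to 0.40 for Ndufs7, -0.10 to 0.23 for Ndufs8, -0.03 to 0.28 for Ndufv1, -0.09 to 0.14 for Ndufv2 and 0.14 to 0.37 for Ndufv3.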
